A study of Rattus norvegicus with 232 samples.

Results

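Unannotated multi-exon intergenic genes were examined in the rat brain transcriptome that the authors assembled on the rn6 genome. A gene of that assembly was taken where it carried no reference gene identifier or name, where at least 1 of its transcripts had 2 or more exons, and where its span overlapped no named gene on either strand. Genes in the first 7 Mb of chromosome 20 and between 25 and 30 Mb of chromosome 19 were left out. The rule used no expression value. Of 100167 assembled genes, 17643 met it, and 17444 of these had values in the table of 99376 genes; the other 199 had none. The named genes numbered 37563 in the assembly and 37281 in the table. They are assembled genes with a reference identifier or name. Those that carry the same one were not merged, so that a known gene can count more than once in the comparisons below.

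Transcripts between annotated genes are commonly found when total RNA is assembled without being held to a reference. Many are long noncoding RNAs, which are spliced and often capped like messenger RNAs but carry no conserved reading frame, and others are unjoined ends of known genes, enhancer transcripts or genes missing from the annotation. Long noncoding RNAs of the brain are known for low levels, for expression in few cell types and for weak conservation between species. A further known kind starts from the same promoter as a coding gene and runs the opposite way. Multiple exons mark reads that span a splice junction, which sets such transcripts apart from unspliced stretches. Whether the genes described here code for a protein was not examined.

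Values came from 135 libraries, 1 per animal and 3 per strain, of 45 inbred rat strains. These were 30 strains of the HXB/BXH recombinant inbred (RI) panel and 15 classic inbred strains. Classic strains included the parents from which the HXB/BXH panel was bred, namely BN-Lx/Cub and SHR/OlaIpcv, besides ACI/SegHsd, COP/CrCrl, DA/OlaHsd, F344/NCrl, F344/NHsd, F344/Stm, LE/Stm, LEW/Crl, LEW/SsNHsd, SHRSP/A3NCrl, SR/JrHsd, SS/JrHsd and WKY/NCrl. A newer table was used for a single comparison over 43 animals of 17 further strains, those of the FXLE/LEXF recombinant inbred panel with at least 2 animals: FXLE12/Stm, FXLE13/Stm, FXLE14/Stm, FXLE15/Stm, FXLE17/Stm, FXLE18/Stm, FXLE20/Stm, LEXF10A/Stm, LEXF10B/Stm, LEXF11/Stm, LEXF1A/Stm, LEXF1C/Stm, LEXF2C/Stm, LEXF5/Stm, LEXF6B/Stm, LEXF7B/Stm and LEXF8A/Stm. By the description of the whole series the rats were males that had received no drug or alcohol, the tissue was labelled as whole brain, and per the methods of the study the animals were young adults whose brains were split along the midline. Within a strain the animals are near-identical in genotype, so that a strain mean stands for 1 genotype. The values are regularized log2 values scaled across libraries by the authors, and because the table gives no counts, the depth of each library is unknown and the number of animals limits the precision. In bulk tissue, fewer cells of a type and less RNA per cell cannot be told apart.

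Markers of brain cells were high in every library: the mean of 4 neuronal markers lay between 13.70 and 14.54 and that of 3 oligodendrocyte markers between 14.94 and 16.47. Some libraries stood apart. Over 868 named genes with strongly strain-dependent values, the libraries SHRSP/A3NCrl 1 and F344/NCrl 2 were each nearest to a library of the other's strain, and LEW/Crl 1 was nearest to a library of LEW/SsNHsd. Over 293 intergenic genes chosen alike, SHRSP/A3NCrl 1 was nearest to its own strain and F344/NCrl 2 to BXH11/Cub. There 5 libraries were nearest to another strain, the others being LEW/Crl 1 and 3, nearest to LEW/SsNHsd, and F344/NCrl 1 and 3, nearest to F344/NHsd. The mean of 3 liver markers was 30.51 and 20.36 in LE/Stm 2 and LE/Stm 3 against 10.44 in LE/Stm 1 and a median of 8.00 over all libraries. Serpina1 carried much of this mean with 59.02 in LE/Stm 2, a value too high for the log2 of any number of reads, and the other markers, Alb and Fgb, were at 18.18 and 14.32 there against medians of 9.50 and 5.14. In the 3 LEW/Crl libraries the Y-linked gene Kdm5d was at 7.73 to 8.46 (median of all libraries 11.15) and Eif2s3y at 6.38 to 7.77 (median 10.71). Other strains had libraries as low as 7.85 and 7.06 in these genes, and the Y-linked Ddx3y, at 2.66 to 3.24 in LEW/Crl against a median of 2.79, did not set that strain apart. The strain effects over all 45 strains and over the classic inbred strains, and the clusters, are also given without 7 libraries: SHRSP/A3NCrl 1, F344/NCrl 2, LE/Stm 2 and 3, and LEW/Crl 1, 2 and 3. F344/NCrl 1 and 3 were kept. Of the intergenic genes, 3 had a value over 30, and they were not named.

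The intergenic genes were short and simple. Of the 17643, 12931 (73.3%) had 2 exons, 3173 had 3, 879 had 4 and 660 had 5 or more, and 16969 had a single transcript. Their summed exon length had a median of 1334 bases (quartiles 701 and 2600) against 4781 bases for named genes, whereas their span had a median of 21144 bases against 35942. The median of the longest intron was 17346 bases, close to the 19380 bases of named genes. The nearest named gene was a median of 111451 bases away, 895 of the intergenic genes lay within 1 kb of one and 1096 lay over 1 Mb from any. Chromosome 2 carried 2328 of them, or 80.9 for each 100 named genes, and the X chromosome 1322, or 97.6 for each 100. The Y chromosome, with 77 beside 35 named genes, had 220 for each 100. Chromosomes 10 and 12 carried few, with 20.2 and 16.4 for each 100.

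They were also not independent units. The span of 13354 (75.7%) overlapped that of another intergenic gene, 11329 of them on the same strand and 8029 on the opposite strand, so that the 17643 genes formed 7309 separate loci. Of these loci, 4289 held a single gene and 606 held 6 or more. The largest, at chr1:159248991-160924628, held 105. Where genes overlap on a strand, an estimated count may be split between them, and values of such genes are uncertain in that sense. Among pairs of overlapping genes with a strain effect, the correlation of the 45 strain means had a median of 0.386 over 3732 pairs on the same strand and of 0.200 over 1906 pairs on opposite strands. Loci with many members therefore count many times in the shares given here.

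A known arrangement is the divergent pair, in which a noncoding transcript starts close to the start of a coding gene and runs away from it. Of the intergenic genes within 1 kb of a named gene, 496 lay head to head with it, 283 downstream on the same strand, 82 upstream on the same strand and 34 tail to tail. The 492 head-to-head genes with values had 402 named partners, of which 293 matched a single RefSeq promoter by symbol. These promoters cover 250 bases before and 50 bases after the start of the named gene on the GRCr8 assembly, which is a later build than rn6. GGGCGG, the core of the GC box, was found on either strand in 71.3% of the 293 partner promoters and in 33.1% of all 33469 promoters. The number of CG dinucleotides had a median of 27 against 7. The CCAAT motif was in 35.2% against 37.5%. The letters TATAAA, a form of the TATA box, were in 4.78% against 14.2%. The partner promoters thus had a higher median CG count and a smaller share with TATAAA than all promoters, as a description of these windows. All partners are genes of the brain assembly with a single promoter of their symbol, whereas the 33469 promoters were not limited in either way. Promoters of other genes of the brain assembly were not compared.

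The following 4 promoters are shown because they lie beside the head-to-head intergenic genes whose level depended most on strain, among those within 1 kb, above the table's median level and with a matched partner. Capitals mark GGGCGG and CCAAT on either strand (CCGCCC and ATTGG on the strand shown), and each sequence is written from 5′ to 3′ on the strand of the named gene.
Got1, chr1:252329822-252330121, minus strand: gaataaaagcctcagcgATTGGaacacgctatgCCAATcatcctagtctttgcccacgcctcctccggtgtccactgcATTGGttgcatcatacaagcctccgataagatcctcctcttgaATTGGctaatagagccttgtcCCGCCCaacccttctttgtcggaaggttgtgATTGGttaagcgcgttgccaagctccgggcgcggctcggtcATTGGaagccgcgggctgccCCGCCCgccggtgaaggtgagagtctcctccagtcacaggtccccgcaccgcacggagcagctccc
Lbx1, chr1:254034777-254035076, minus strand: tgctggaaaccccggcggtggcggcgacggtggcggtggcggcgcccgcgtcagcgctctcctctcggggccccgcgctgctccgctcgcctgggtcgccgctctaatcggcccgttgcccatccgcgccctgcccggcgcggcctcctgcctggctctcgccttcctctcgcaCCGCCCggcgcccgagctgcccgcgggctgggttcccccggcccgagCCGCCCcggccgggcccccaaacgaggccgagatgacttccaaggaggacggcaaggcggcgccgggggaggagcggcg
Coq9, chr19:10185887-10186186, minus strand: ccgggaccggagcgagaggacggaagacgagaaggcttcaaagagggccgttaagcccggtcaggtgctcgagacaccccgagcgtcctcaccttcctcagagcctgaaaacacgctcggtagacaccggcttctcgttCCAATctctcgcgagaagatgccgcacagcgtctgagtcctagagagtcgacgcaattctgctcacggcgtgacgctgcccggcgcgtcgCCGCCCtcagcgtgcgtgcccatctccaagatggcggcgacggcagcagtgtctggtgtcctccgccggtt
Rbl2, chr19:32096362-32096661, minus strand: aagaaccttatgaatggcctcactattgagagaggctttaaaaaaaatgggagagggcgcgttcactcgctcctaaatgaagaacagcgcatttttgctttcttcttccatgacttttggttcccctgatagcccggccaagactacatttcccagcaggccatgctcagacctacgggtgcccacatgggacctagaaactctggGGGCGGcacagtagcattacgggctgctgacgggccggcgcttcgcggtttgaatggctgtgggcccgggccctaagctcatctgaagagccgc
The Got1 window held 2 GGGCGG and 6 CCAAT, the Lbx1 window 2 and none, the Coq9 window 1 of each and the Rbl2 window 1 and none. None of the 4 windows held TATAAA, and the CG count was 46 for Lbx1, 35 for Coq9, 21 for Got1 and 15 for Rbl2.

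The gene beside Got1, PRN6.5G0023690, starts 241 bases from it and runs the other way over chr1:263270004-263304694 in 5 exons. Got1 encodes the cytosolic aspartate aminotransferase. Strain means of the intergenic gene ran from 6.04 in F344/NHsd over a median of 6.63 to 8.42 in HXB31/Ipcv, and R2, the share of the variance that lies between strains, was 0.945. Got1 itself moved between 12.74 and 13.56 with no strain effect at the 5% false discovery rate (FDR) (R2 = 0.42, adjusted p = 0.132, limma). The correlation of the pair over the 45 strain means was 0.287.

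The gene beside Lbx1 gave the opposite picture. Lbx1 is a homeobox transcription factor of dorsal hindbrain and spinal cord neurons. PRN6.5G0023896, 712 bases from it at chr1:264975268-264984144, had strain means from 1.93 in SS/JrHsd to 5.5 in HXB5/Ipcv, and Lbx1 from 1.85 to 5.46, also with its highest mean in HXB5/Ipcv. Over the 45 strains the means of the pair had r = 0.982 and rho = 0.899, and r = 0.979 without the 2 strains farthest from the median. Both had a strain effect, with R2 of 0.890 for the intergenic gene and 0.868 for Lbx1. The points share their libraries.

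PRN6.5G0210830 starts 42 bases from Coq9, a gene of coenzyme Q synthesis, and its strain means ran from 3.82 in HXB13/Ipcv to 5.65 in HXB24/Ipcv (R2 = 0.886). PRN6.5G0211319 starts 909 bases from Rbl2, a pocket protein that restrains the cell cycle, with strain means from 3.47 in BXH13/Cub to 6.52 in DA/OlaHsd (R2 = 0.801). Coq9 had a strain effect of its own (R2 = 0.536, adjusted p = 0.00357, limma), with r = 0.381 to its neighbour, and Rbl2 had none at 5% FDR (R2 = 0.475, adjusted p = 0.27, limma; r = 0.087). Of these 4 divergent genes, the strain means followed those of the partner closely in the Lbx1 pair alone.

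The level per kb, the mean value minus log2 of the summed exon length in kb, had a median of 2.81 (quartiles 1.91 and 3.76) in the intergenic genes. In named genes it was 3.91 (quartiles 2.50 and 6.20). Of the 17444 intergenic genes, 3812 (21.9%) lay above the median of the named genes. The single-exon intergenic genes had a median of 2.87 and the unnamed multi-exon genes that overlap a named gene one of 2.53, so that the intergenic genes resembled other unnamed genes more than named ones. More exons went with more exon length but not with a higher level per kb, whose median was 2.87 with 2 exons and 2.52 with 5 or more.

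**Figure D1:**
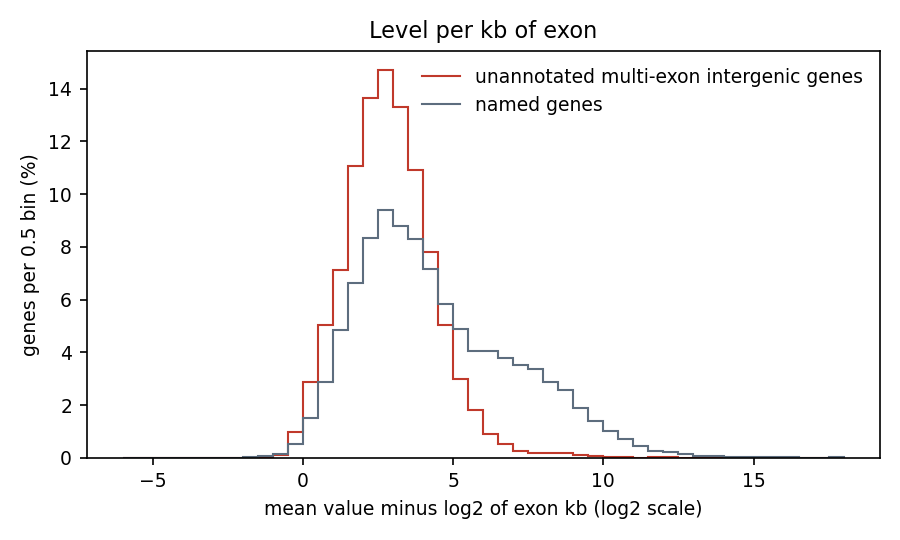
Share of genes (y axis, percent per bin of 0.5) by mean level per kb of exon (x axis, log2 scale), for 17444 unannotated multi-exon intergenic genes and 37281 named genes, 8 of which fall beyond the axis and are counted in its end bins. The intergenic genes centre on 2.81 with quartiles of 1.91 and 3.76, and the named genes spread further to the right, with an upper quartile of 6.20.

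The strain effect on intergenic genes was measured next. Median R2, the broad-sense heritability of a 1-way layout, was 0.413 (quartiles 0.356 and 0.487), where 0.328 would be the average with no strain effect in 45 strains and 135 animals. R2 exceeded 0.8 in 293 of the intergenic genes (1.68%), in 1.71% of the whole table and in 869 named genes (2.33%). In the moderated F-test of limma at 5% FDR over all 99376 genes, 6348 intergenic genes (36.4%) had a strain effect against 36.7% of the whole table and 42% of the named genes. Among those 6348, the distance between the lowest and the highest strain mean had a median of 2.26 on the log2 scale, and it was 2 or more in 4127 of them. In the named genes with a strain effect its median was 1.42, at higher levels. Without the 7 libraries named above, 6067 intergenic genes (34.8%) and 39.7% of the named genes passed the test, and median R2 of the intergenic genes was 0.424.

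The share of genes with a strain effect was lower in intergenic than in named genes with all animals, and the size and order of that difference varied with fewer. Without the animals of replicate number 1, 2 or 3 it was 20.9%, 13.9% and 21.9% of the intergenic genes and 26.7%, 12.8% and 22% of the named genes, so that the order turned without number 2 alone. To compare genes of like level, named genes were placed in 10 level classes that hold equal numbers of the intergenic genes, by the mean deposited value. Averaged over these classes, 34.6% of the named genes and 36.4% of the intergenic genes had a strain effect, and median R2 was 0.411 and 0.414. The median distance between the extreme strain means, over genes with and without a strain effect, was 1.8 in named and 1.94 in intergenic genes on this footing. In the lowest class 22.7% of the intergenic and 17.1% of the named genes passed, and in the highest class 50.4% and 46%. The highest class is open upwards and holds 22354 named genes. Within it, at values of 5.5 to 6.5, 47.8% of 912 intergenic and 44.7% of 4006 named genes passed, and at values over 8, 53.2% of 293 and 45.9% of 13208. These shares were compared without a test, since genes are not replicates.

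**Figure D2:**
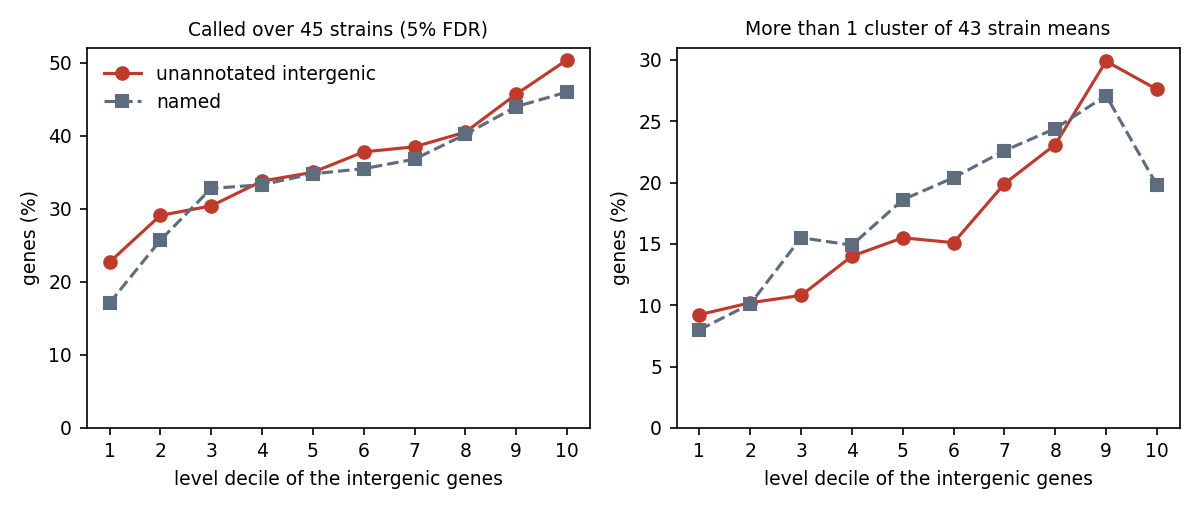
Percent of genes (y axes) with a strain effect at 5% FDR (left) and with more than 1 cluster of strain means (right), by level class (x axes; 10 classes with equal numbers of intergenic genes), for intergenic genes (circles) and named genes in the same classes (squares). The shares with a strain effect run from 22.7% to 50.4% in intergenic genes and from 17.1% to 46% in named genes.

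Genes with more exons passed the test more often. The share rose from 33.7% of 12756 genes with 2 exons over 39.5% with 3 and 46.8% with 4 to 59.2% of 660 genes with 5 or more. Levels rose as well, from a median value of 3.01 to 5.23. When the shares were averaged over the 10 level classes they were 35.7% with 2 to 4 exons and 53.6% with 5 or more, although 7 of the classes held at most 42 genes of the latter kind and in the lowest class their share was the smaller (12% against 22.8%), as in the class seventh from the lowest (38.1% against 38.5%). Distance to the nearest named gene made little difference, with 36.5% within 1 kb and 34.3% beyond 500 kb. The share was highest on chromosome 12 (45.1% of 206) and chromosome 7 (43.6% of 966) and lowest on the X chromosome (29.9% of 1298). On the Y chromosome 23 of 73 passed, and 20 without the 7 libraries that stood apart.

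Each panel was then tested on its own animals. Over the 30 HXB/BXH strains 2122 intergenic genes (12.2%) had a strain effect, with 10.4% in the whole table and 11.5% in named genes. With batch as a covariate the order turned, with 12.8% of the intergenic and 13.6% of the named genes. Without the animals of replicate number 1, 2 or 3, 1018, 827 and 1176 intergenic genes passed (5.84%, 4.74% and 6.74%), with 5.89%, 4.33% and 6.01% of the named genes, so that the order also turned without number 1. Over the 15 classic inbred strains there were 2689 (15.4%), with 13.3% in the whole table and 14.7% in named genes, and 2527 (14.5%) without the 7 libraries, with 14.2% in named genes. With batch as a covariate 885 of the intergenic genes (5.07%) and 4.67% of the named genes passed, and without the animals of replicate number 1, 2 or 3, 1006, 694 and 1144 intergenic genes did (5.77%, 3.98% and 6.56%), with 5.62%, 3.58% and 5.35% of the named genes. The 894 genes found in both panels made up 42.1% of the former and 33.2% of the latter, and in named genes these shares were 41.3% and 32.5%. No animal is shared between the panels, although all libraries were scaled together.

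A newer table of the authors holds strains that the first lacks. Its annotation has 35440 genes by the same rule, with chromosomes 19 and 20 left out, of which 18671 have values. Over 17 strains of the FXLE/LEXF panel with 43 animals, 328 of these (1.76%) had a strain effect at 5% FDR, against 1.78% of all 84239 genes and 1.83% of 27487 named genes. In 5 level classes with equal numbers of the intergenic genes, the order varied. It was 3.56% of the intergenic against 1.84% of 22287 named genes in the highest class, and 1.2% against 1.05% in the lowest. In classes 2, 3 and 4 it was 1.04%, 1.39% and 1.58% against 1.83%, 1.68% and 2.37%. Without replicate number 1, 2 or 3, 66, 24 and 136 intergenic genes passed over all levels (0.353%, 0.129% and 0.728%), with 0.375%, 0.109% and 0.833% of the named genes. The share was far below that of the first table in both kinds of gene. The newer table differs in its panel, its assembly and its numbers of strains and animals, with 2 or 3 animals a strain. Some of its strains also share no sequencing batch with the others. The cause of the lower share was not tested. The genome build of the newer table is not stated, so that its genes were not matched to those of the first.

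The gathering of strain means around separate levels was described by clusters. In normal mixtures with equal variance over 43 strains, 2761 intergenic genes had 2 clusters and 297 had 3, together 17.5%, the same share as in the whole table (17.5%) and less than in named genes (20.1%). Averaged over the level classes the named share was 18.1%. With a BIC margin over 6 the count fell to 1085 intergenic genes (6.22%). Named genes and the whole table were not counted at this margin, so that this share has none beside it. In the 2761 genes the cluster means lay a median of 1.16 apart on the log2 scale. The smaller cluster held 10 or more strains in 1155 genes (41.8%) and a single strain in 196 (7.1%). A low cluster was the smaller in 2025 of the 2761 and a high cluster in 736. Named genes with 2 clusters were much alike: of 6756, the low cluster was the smaller in 5028, the smaller cluster held 10 or more strains in 38.5% and a single strain in 8.76%. The authors kept only isoforms detected in most of the samples, so that genes expressed in few strains could be missing. The bearing of this filter on the counts of low and high clusters was not tested. Of the 196 clusters of a single strain, 153 were low and 43 high, and LE/Stm and F344/Stm made 47 and 41 of them. LE/Stm includes 2 of the libraries that stood apart. Among the libraries used, those of these strains were also the only ones of batches 13 and 14, so that strain and batch cannot be told apart for them. Without the 7 libraries 3283 intergenic genes (18.8%) had more than 1 cluster.

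The 6 intergenic genes with the highest R2 show how sharply strains separated. PRN6.5G0090547, on the minus strand of chr5:169021515-169105841, has 2 exons of 435 bases in all and ends 1270 bases upstream of Per3, a gene of the circadian clock on the same strand. Its strain means lay at 3.49 in HXB31/Ipcv, a median of 8.99 and 9.99 in SR/JrHsd, and R2 was 0.976 (adjusted p = 1.35e-54, limma F-test). The pooled SD within strains was 0.473, so that the 6.5 between the extreme strains was far beyond the spread of animals. The mixture put 17 of 43 strains around 4.25 and 26 around 9.27. Per3 did not follow it (r = -0.141 over the 45 strain means).

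PRN6.5G0018517 (chr1:213709496-213731074, minus strand, 4 exons) lies head to head with Pgghg, 3519 bases away, a gene of collagen sugar breakdown. Its strain means ran from 5.23 in HXB1/Ipcv over a median of 8.53 to 9.52 in DA/OlaHsd (R2 = 0.973). In the progenitors the animals read 6.23, 6.28 and 6.45 in BN-Lx/Cub and 9.36, 8.91 and 9.37 in SHR/OlaIpcv. The progenitors did not overlap, and the 30 RI strains fell into clusters of 10 around 5.97 and 20 around 8.87, close to the levels of the progenitors.

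PRN6.5G0151146 (chr11:43685730-43746536, plus strand) is 238442 bases from its nearest named gene, Cldnd1. Its BN-Lx/Cub animals read 3.05, 2.51 and 3.09 and its SHR/OlaIpcv animals 6.54, 5.87 and 5.65, and the RI strains split into 13 around 2.69 and 17 around 6.37 (R2 = 0.965). PRN6.5G0190605 (chr16:37500470-37544957, plus strand) lies 4711 bases head to head from Hpgd, the enzyme that degrades prostaglandins. It read 5.48, 5.27 and 6.10 in BN-Lx/Cub and 9.53, 9.27 and 9.16 in SHR/OlaIpcv, with 13 RI strains around 5.98 and 17 around 9.52 (R2 = 0.957). Hpgd had r = 0.148 to it over strains. In both genes the low cluster matched BN-Lx/Cub and the high cluster SHR/OlaIpcv.

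PRN6.5G0161350 (chr13:19211608-19215933, minus strand, 4 exons) stands 2438892 bases from Cntnap5b, a cell adhesion gene of neurons. Its strain means ran from 4.34 in LE/Stm to 8.36 in HXB13/Ipcv (R2 = 0.954). The progenitors were at 4.68 and 5.82, below the means of both RI clusters, which lay at 6.23 and 7.97. PRN6.5G0006761 (chr1:75642656-75645142, minus strand) is 180202 bases from AC127640.1 and had BN-Lx/Cub animals at 2.81, 2.46 and 3.05 and SHR/OlaIpcv animals at 6.29, 5.94 and 5.92. Here 14 RI strains lay around 2.57 and 16 around 6.36 (R2 = 0.952), and over 43 strains 3 clusters were found. PRN6.5G0228416 (chrX:132520321-132521081, plus strand), 900592 bases from Prr32, also had 3 clusters, with progenitor means of 1.94 and 5.39 and an R2 of 0.948.

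**Figure D3:**
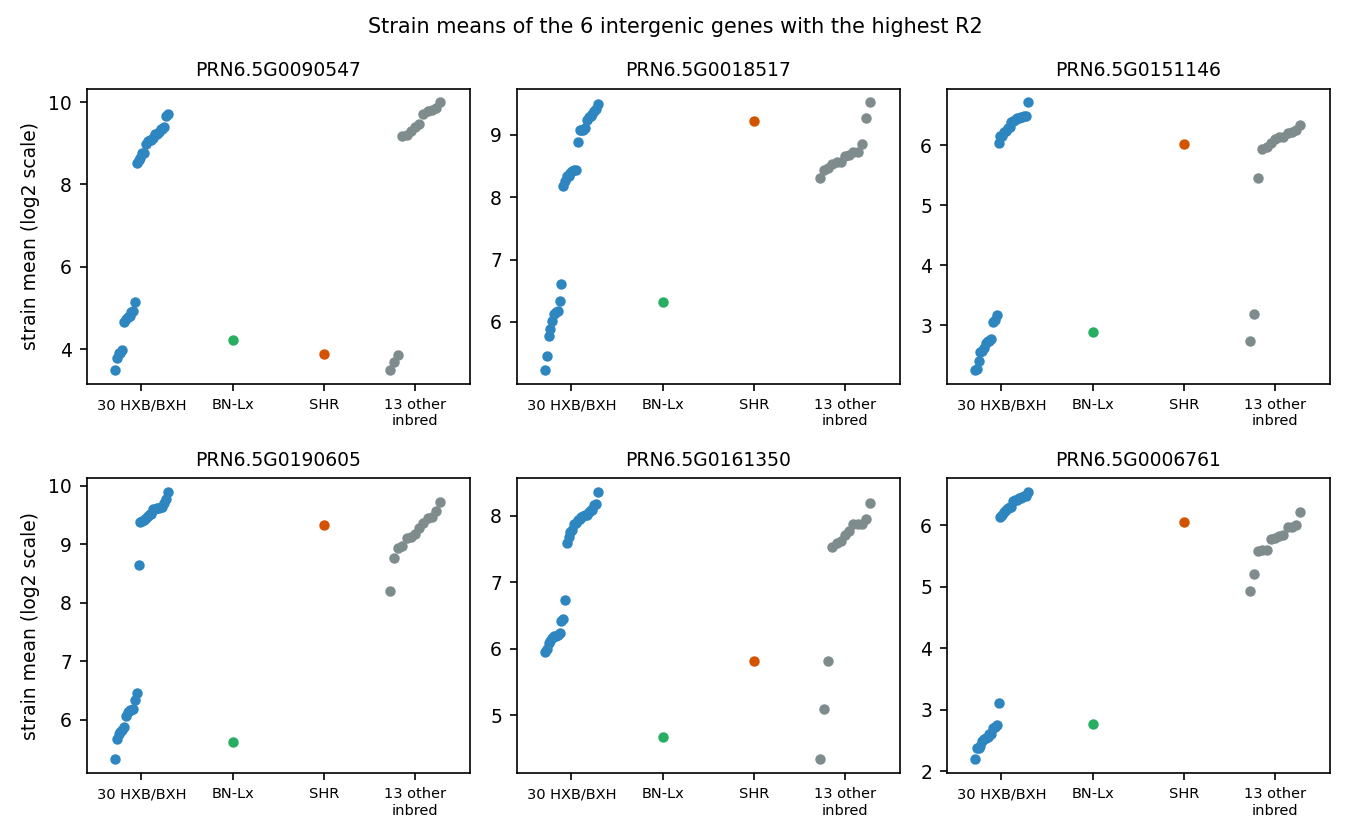
Strain means (y axes, log2 scale) of the 6 intergenic genes with the highest R2, 1 panel each, with each point a strain mean of 3 animals, for 30 HXB/BXH strains, both progenitors and 13 other classic inbred strains (x axes; points sorted by level within a group). Strains fall into separate levels in each panel, and in PRN6.5G0090547 both progenitors (4.22 and 3.88) lie at the low level while 18 RI strains lie at the high level.

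The progenitors of the HXB/BXH panel were compared in the fit over all strains. Between BN-Lx/Cub and SHR/OlaIpcv, 349 intergenic genes (2%) in 291 loci differed at 5% FDR, with 2.1% in the whole table and 2.59% in named genes. Averaged over the level classes, 2.73% of the named and 2% of the intergenic genes differed. The intergenic share was the larger in the lowest class (0.516% against 0.086%) and in the highest (3.61% against 2.27%). The values of the 3 animals of each strain did not overlap in 346 of the 349. Over all intergenic genes they did not overlap in 21.5%, and over the whole table in 18.8%. The absolute differences of the 349 ranged from 0.79 to 5.45 on the log2 scale, with a median of 1.87. In all, 129 were higher in BN-Lx/Cub (1.07% of the whole table were) and 220 were lower (1.02% of the whole table). Single libraries moved these counts: 145, 142 and 144 were lower without BN-Lx/Cub 2, BN-Lx/Cub 3 or SHR/OlaIpcv 2, and 86 were higher without BN-Lx/Cub 1. In named genes 620 were higher and 347 lower.

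The split between higher and lower genes also moved with the scaling of the libraries. Over all intergenic genes the difference between BN-Lx/Cub and SHR/OlaIpcv had a median of -0.13, and over the whole table of -0.07. When each library was centred on its table median, the whole-table median moved to 0.06, 361 intergenic genes differed and 47.4% of them were higher in BN-Lx/Cub, in place of 37%. With each library centred on its median over the intergenic genes the share was 49.7%. In named genes the share higher in BN-Lx/Cub was 64.1%, 71.9% and 72.4%. The progenitor libraries used here also share no sequencing batch, although the labels list further samples of these strains in other batches. The 3 BN-Lx/Cub libraries had medians over the intergenic genes of 3.34, 3.15 and 3.13, and the 3 SHR/OlaIpcv libraries 3.27, 3.52 and 3.28. With batch as a covariate 191 of the intergenic genes (1.09%) and 1.31% of the named genes differed. Without all animals of replicate number 1, 2 or 3 there were 317, 166 and 190 (1.82%, 0.952% and 1.09%), with 3.63%, 1.4% and 1.29% of the named genes, and 26.2%, 45.2% and 36.3% of the intergenic ones were higher in BN-Lx/Cub.

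The genes that were highest in BN-Lx/Cub relative to SHR/OlaIpcv came first. PRN6.5G0002563 (chr1:27172682-27186436, plus strand) has 2 exons of 13684 bases in all and lies 17810 bases upstream of Nkain2, a partner of the sodium pump, on the same strand. Its BN-Lx/Cub animals read 9.44, 9.13 and 8.17 and its SHR/OlaIpcv animals 4.21, 4.79 and 5.13, a difference of 4.2 ± 0.55 (SE; adjusted p = 1.21e-08, limma). PRN6.5G0181234 (chr15:30534848-30551660, plus strand, 4 exons) read 7.43, 7.02 and 7.45 against 4.53, 3.14 and 3.11, a difference of 3.70 ± 0.60. Its strain means had r = 0.777 with those of AABR07017849.1, its nearest named gene at 119673 bases on the same strand. PRN6.5G0220908 (chrX:2934885-3011322, minus strand) read 6.05, 6.86 and 5.96 against 3.09, 3.04 and 2.01. PRN6.5G0066335 (chr4:59133812-59139825, plus strand) read 5.19, 5.6 and 5.25 against 1.54, 1.62 and 2.27. In all 4 the groups did not overlap, and each had 2 clusters over the RI strains.

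The largest difference of all ran the other way. PRN6.5G0075129 (chr4:162069782-162148919, minus strand, 2 exons) read 4.65, 4.06 and 5.23 in BN-Lx/Cub and 10.32, 9.80 and 10.16 in SHR/OlaIpcv, a difference of -5.45 ± 0.58 (SE; adjusted p = 6.69e-12, limma). Of the RI strains, 10 lay around 4.63 and 20 around 10.04, at the levels of the progenitors. PRN6.5G0178329 (chr14:114029052-114035006, minus strand) has only 228 exon bases and lies 35625 bases from Mtif2, a mitochondrial translation factor. It read 4.01, 3.76 and 3.92 in BN-Lx/Cub against 8.86, 8.71 and 9.12 in SHR/OlaIpcv.

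This gene did not split in the RI panel. Over 43 strains only 3 formed the low cluster of PRN6.5G0178329, around 3.88, and over the 30 RI strains it had 1 cluster and no strain effect at 5% FDR (adjusted p = 0.17, limma F-test). PRN6.5G0031996 (chr2:75876566-75918683, plus strand, 221 exon bases) was alike in this, with 2.91, 2.05 and 2.04 against 5.25, 7.15 and 5.97 in the progenitors and an adjusted p of 0.735 over the RI strains in the limma F-test. PRN6.5G0099134 (chr6:101277522-101282759, minus strand), 13564 bases head to head from Gphn, the scaffold of inhibitory synapses, read 8.12, 5.35 and 4.07 against 10.07, 10.20 and 10.45. Its BN-Lx/Cub animals differed widely among themselves, and only 3 RI strains were in its low cluster.

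Most of the 349 genes did split in the RI strains, which are other animals. More than 1 cluster over the 30 HXB/BXH strains was found in 245 of them (70.2%), in 15.3% of the other intergenic genes and in 14.9% of the whole table. The share was 72.9% of those higher and 68.6% of those lower in BN-Lx/Cub, and 74.5% of the named genes that differed. A strain effect over the RI strains was found in 309 of the 349 (88.5%) and in 10.6% of the other intergenic genes. In the 208 genes with exactly 2 clusters, the progenitors lay on either side of the midpoint of the cluster means in 206. In 123 of the 208 at least 1 RI strain lay more than 0.5 on the log2 scale beyond both progenitors. The SD within strains had a median of 0.624 over all intergenic genes. It was not computed over the 208 genes alone, and the most extreme of 30 strain means is far out by choice. Named genes were not counted for RI strains beyond the progenitors. How many of the 208 would pass this margin through the spread of animals was not tested. The gap between the cluster means was a median of 0.854 times the progenitor difference (quartiles 0.747 and 0.999). These genes were chosen by their progenitor difference, which tends to overstate it, so that a ratio under 1 says little by itself. The low cluster held a median of 14 of the 30 strains, and the smaller cluster held 10 or more in 186 of the 208.

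**Figure D4:**
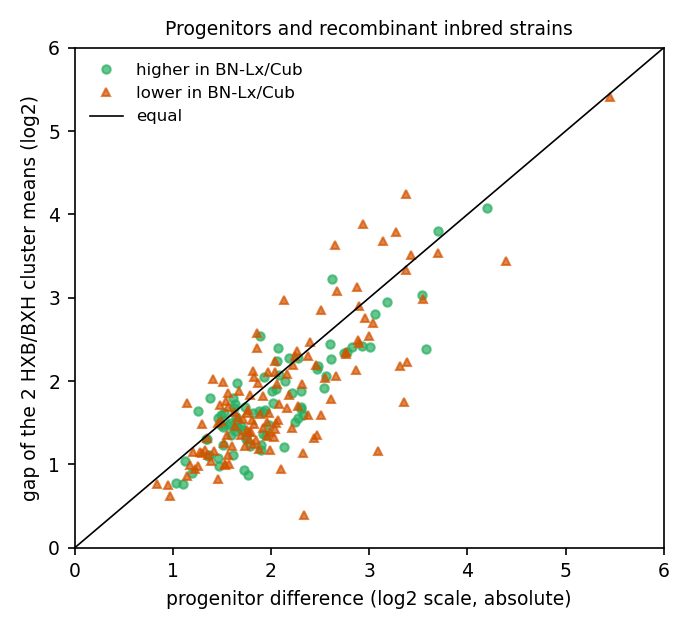
Gap between the 2 cluster means over 30 HXB/BXH strains (y axis, log2 scale) against the absolute difference between BN-Lx/Cub and SHR/OlaIpcv (x axis, log2 scale) for the 208 intergenic genes that differed between the progenitors and had 2 clusters (circles, higher in BN-Lx/Cub; triangles, lower); the line marks equal values. Most points lie near or under the line, with a median ratio of 0.854. The genes were chosen by the difference on the x axis, which tends to overstate it.

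Some genes split in the RI strains although the progenitors did not. In 84 of the 17444 intergenic genes the RI strains formed 2 clusters at least 2 log2 units apart. The smaller cluster held 5 or more strains, and these genes had a strain effect over the panel and no value over 30. The progenitors were on opposite sides in 73 of the 84, both low in 10 (11.9%) and both high in 1 (1.19%). Of the 37281 named genes, 266 were chosen the same way, with both progenitors low in 25 (9.4%) and both high in 17 (6.39%). The whole table was not counted in this way. PRN6.5G0090547 beside Per3 is the foremost case: its 3 BN-Lx/Cub animals read 4.03, 3.79 and 4.83 and its 3 SHR/OlaIpcv animals 3.97, 3.78 and 3.91, whereas 18 RI strains had means between 8.52 and 9.70. No animal of the 18 read below 7.74 and none of the other 12 RI strains above 5.64. Of the 15 classic inbred strains, 10 were at the high level.

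Further examples were chosen after their values were seen. PRN6.5G0051731 (chr3:64190870-64191495, plus strand), 55906 bases from Sestd1, had progenitor means of 1.80 and 2.00 and 17 RI strains between 4.61 and 5.04. PRN6.5G0082425 (chr5:70175524-70188955, minus strand), 54415 bases from Fsd1l, had progenitor means of 1.32 and 1.24 and 16 RI strains between 4.3 and 5.59. A pair of overlapping genes on chromosome 5, PRN6.5G0086653 (chr5:132660962-132662215) and PRN6.5G0086642 (chr5:132606164-132719722), each had 14 RI strains low and 16 high. In the 10 genes with both progenitors low, between 14 and 18 RI strains were at the high level. Single animals of the levels overlapped in some of them, as in PRN6.5G0117593 (chr8:28229814-28237322), where the lowest animal of the high strains read 2.96 and the highest animal of the low strains 3.85. Why these RI strains lay beyond both progenitors was not tested.

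The intergenic genes with the highest level per kb were short. PRN6.5G0115588 (chr8:156146-207802, plus strand, 3 exons, 481 exon bases) had a level per kb of 16.36 and strain means from 11.75 in BXH13/Cub over a median of 16.16 to 16.72 in F344/Stm (R2 = 0.897). PRN6.5G0115602 (chr8:181237-188368, minus strand, 256 exon bases) lies within the same span on the other strand, had a level per kb of 14.06 and strain means from 7.98 to 14.12 (R2 = 0.803). In each, 11 of 43 strains were in the low cluster. The first differed between the progenitors (12.58, 11.06 and 13.43 in BN-Lx/Cub against 15.78, 15.05 and 15.04 in SHR/OlaIpcv; adjusted p = 0.000179, limma) and the second did not at 5% FDR (11.17, 8.26 and 13.71 against 11.14, 7.23 and 11.01; adjusted p = 0.786, limma).

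The other 3 of high level varied less. PRN6.5G0087259 (chr5:138042658-138100857, plus strand, 471 exon bases), 53815 bases from Slc2a1, the main glucose transporter of the blood-brain barrier, had a level per kb of 13.41 and strain means of 11.13 to 13.35 (R2 = 0.629, adjusted p = 3.64e-06, limma F-test). PRN6.5G0084008 (chr5:98955127-99113828, minus strand, 650 exon bases) had 12.97 per kb and strain means of 11.69 to 12.81, and PRN6.5G0125721 (chr8:119074822-119079977, plus strand, 202 exon bases) 12.40 per kb and strain means of 9.05 to 11.29. Neither had a strain effect at 5% FDR (adjusted p = 0.262 and 0.168, limma F-test), with ranges of 1.11 and 2.24.

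The genes with the most exons lay at middling values. PRN6.5G0129319 (chr9:26162359-26736573, minus strand) has 72 exons of 16249 bases in all over 574215 bases, and its nearest named gene is Mcm3, a subunit of the replicative helicase, at 177483 bases. Its level per kb was 1.18, and its strain means ran from 4.46 in HXB4/Ipcv over a median of 5.24 to 6.28 in LE/Stm, with R2 = 0.664 (adjusted p = 2.29e-07, limma F-test). LE/Stm includes 2 libraries that stood apart. PRN6.5G0146208 and PRN6.5G0146189, with 55 and 46 exons, follow each other on the plus strand of chromosome 10 (chr10:93146427-93262708 and chr10:92926867-93096924), with levels per kb of 1.73 and 1.65. The second had a strain effect (R2 = 0.488, adjusted p = 0.0165, limma F-test) and the first did not at 5% FDR (R2 = 0.437, adjusted p = 0.0753, limma F-test). None of the 3 had more than 1 cluster.

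The genes farthest from any named gene all lay in a stretch of chromosome 13. PRN6.5G0161181 (chr13:11191192-11199438) and PRN6.5G0161180 (chr13:11187579-11199451) overlap on the plus strand, 3136153 and 3136140 bases from LOC304725. Their pooled SD within strains was 1.47 and 1.33, and neither had a strain effect at 5% FDR (R2 = 0.355 and 0.341; adjusted p = 0.367 and 0.449, limma F-test). PRN6.5G0161174 (chr13:10715171-10743069, minus strand), 3020901 bases from Cntnap5c, had strain means of 4.25 to 6.37 and passed the test (R2 = 0.465, adjusted p = 0.0297, limma F-test).

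Over all pairs of neighbours, taken without regard to a strain effect, strain means were seldom alike. Within 1 kb, 36.5% of the intergenic genes had a strain effect. The other genes did not pass the test, and how far their strain means reflect the spread of animals was not tested. The overlapping pairs described above were limited to genes with a strain effect, so that their correlations are not on the same footing. The correlation between the strain means of an intergenic gene and its nearest named gene had a median of 0.080 over 890 pairs within 1 kb, 0.014 at 1 to 5 kb and -0.047 over 2856 pairs beyond 500 kb. It exceeded 0.5 in 7.87% of the pairs within 1 kb and in 0.84% beyond 500 kb, and was below -0.5 in 2.02% and 1.3%. Within 1 kb the share over 0.5 was 10.6% of 282 genes downstream on the same strand, 11% of 82 upstream on the same strand, 5.89% of 492 head-to-head genes and 5.88% of 34 tail-to-tail genes. Downstream genes within 1 kb also had correlations below -0.5 in 4.61%. The points of each correlation share their libraries and the scaling of the authors. Downstream genes on the same strand include possible unjoined ends of the named gene, which the table cannot tell apart from separate genes.

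**Figure D5:**
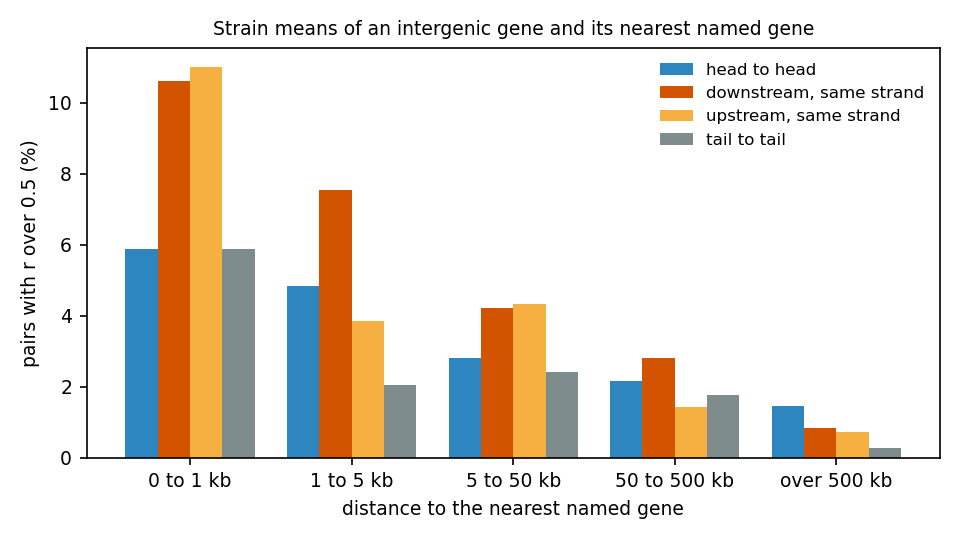
Percent of pairs whose strain means had a correlation over 0.5 (y axis; 45 strains), by distance between the intergenic gene and its nearest named gene (x axis) and by their arrangement (bars). Within 1 kb the bars stand at 10.6% (downstream) and 11% (upstream) on the same strand and at 5.89% head to head, and beyond 500 kb none exceeds 1.45%.

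Libraries differed in the level of the intergenic genes as a whole. The median over the 17444 genes ran from 2.82 to 3.62 over the 135 libraries (SD 0.154), and that over named genes from 6.31 to 6.72 (SD 0.0811). Across libraries the former had a correlation of 0.925 with the median of single-exon intergenic genes and of 0.766 with that of named genes. It was highest in COP/CrCrl (3.51 ± 0.102, SD, n = 3), ACI/SegHsd (3.48 ± 0.0435) and LEW/Crl (3.46 ± 0.114) and lowest in F344/Stm (3.05 ± 0.142). The same strains often held the extremes of single genes: COP/CrCrl had the highest strain mean in 9.31% of the intergenic genes and LEW/Crl in 8.11%, and F344/Stm had the lowest in 9.03%. In named genes COP/CrCrl was highest in 5.19% and LEW/Crl in 4.21%, whereas HXB5/Ipcv was highest in 11.1% and LE/Stm in 6.33%. HXB5/Ipcv, which had the highest means of the Lbx1 pair, was highest in 1.55% of the intergenic genes. LEW/Crl is among the strains with libraries that stood apart. The means of the batches lay between 3.09 and 3.50, and strains were spread unevenly over batches. With each library centred on its median over the intergenic genes 6340 of them had a strain effect, in place of 6348.

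Other limits bear on the counts. With batch as a covariate, 4042 intergenic genes (23.2%) and 28.8% of the named genes had a strain effect over 45 strains. When all animals of a replicate number were left out, the counts over 45 strains fell to between 2417 and 3828, with 90 or 91 libraries in place of 135.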

How the data were processed

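RNA from brain was rRNA-depleted and sequenced as stranded libraries. The authors trimmed reads with Cutadapt 1.9.1, removed ribosomal reads with Bowtie 2 2.3.4.3, aligned the rest with HISAT2 2.1.0 to strain-specific rn6 genomes, assembled transcripts with StringTie 1.3.5 guided by Ensembl 96, estimated counts with RSEM (1.3.1 in the submitters' processing notes) and dropped low or short isoforms. The authors removed 1 factor of unwanted variation and applied a regularized log, so the deposited values are on a log2 scale. The deposited column of BXH2/Cub 1 holds a value over 100 and is read as a score on that scale. Coordinates of the deposited annotation are in base pairs, 1-based. The newer table is on a log2 scale by the range of its deposited values; the submitters' processing notes for some samples name Bowtie2 2.4.5, HISAT2 2.2.1, StringTie 2.2.1 and RSEM 1.3.3, and do not say which table these belong to. Other deposited tables were not used.

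Members and lists were chosen with earlier results of these data known. Strain effects and the progenitor contrast were fitted with limma 3.58.1 in R 4.3.3 on all 99376 genes with Benjamini-Hochberg adjustment at 5% FDR. Clusters were fitted with mclust 6.1.1 (equal variance, 1 to 3 clusters, best BIC) to means of 43 strains, without F344/NCrl and F344/NHsd. The scripts were tested on simulated data. Genes named by rule had no value over 30 and a mean above the table's median of 3.71. They were the 6 with the highest R2, the 4 with the largest progenitor differences each way, the 5 highest per kb, the 3 with most exons, the 3 with 3 clusters and the highest R2, and the 3 farthest from a named gene. Genes beside the promoters shown and those marked as chosen after their values were seen are further to these, and the latter include genes under that median. The batch is the batch characteristic; 26 of the 232 sample titles in the labels give another number. In the newer table libraries of an animal were averaged, and this test was added after the data were seen. Alternatives are given in the closing section. Replicate numbers were checked for pairing: deviations from the strain mean correlated at -0.423, -0.192 and -0.024 between same-numbered animals of BN-Lx/Cub and SHR/OlaIpcv, so the numbers were not taken as pairs. The sequences of the intergenic genes themselves were not analysed here.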

Additional observations from a re-analysis of the deposited data

How the results depend on the processing

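With batch as a covariate, a strain effect was found in 4042 intergenic genes over 45 strains and 885 over the classic inbred strains, 191 differed between the progenitors, and median R2 was 0.667; its value with no strain effect was not computed, so it cannot be set against 0.413. Leaving out each replicate number, or each progenitor library, gave 2417 to 3828 genes over 45 strains, 827 to 1176 over the HXB/BXH strains, 694 to 1144 over the classic inbred strains, 166 to 317 between the progenitors, 3453 to 3791 with more than 1 cluster, a median R2 of 0.5383 to 0.576 and, in the newer table, 24 to 136. These settings leave fewer animals, for which an R2 of 0.489 to 0.494 is the average with no strain effect over 45 strains. At 1% FDR 4101 genes (23.5%; named genes 28.1%) had a strain effect and 229 (1.31%; named 1.69%) differed between the progenitors. Restricting to 3 or more exons gave 2046 (43.6%), 136 (2.9%) and, for clusters, 945 (20.2%). Keeping 1 gene per locus, the one with the highest mean value, gave 2723 (37.5%), 177 (2.44%) and 1406 (19.4%). In both settings the counts fell and the shares rose. The share with a strain effect also rose with level, from 22.7% in the lowest level class to 50.4% in the highest. The rise with 1 gene per locus therefore cannot be told apart from the choice of genes of higher level. With a BIC margin over 6, 1085 genes had more than 1 cluster. With the replicate number as a block there were 7020 over strains (40.2%; named 50.1%) and 364 between the progenitors (2.09%; named 2.77%); the animals share only a number, and 11.2% of 2930 same-numbered pairs had a correlation over 0.1. The setting of 1 gene per locus, centring on the intergenic genes and the test of the newer table were chosen after seeing the data. The depth is unknown, so no counting error could be given.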
